A study of Mus musculus with 23 samples.

Results

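Among the epithelial lines of a panel of murine pancreatic ductal adenocarcinoma (PDAC) cells, 7 needed more than 10 nmol/L of the dual PI3K and mTOR inhibitor Bez235 (NVP-BEZ235) for a half-maximal response, and 10 needed less. The 17 lines were chosen from 23 arrays by their own array values: a line entered when the Cdh1 (E-cadherin) probe set was at 8 or above on the log2 scale, and the study's IC50 table then placed it on either side of 10 nmol/L. High-IC50 lines were HEP-5123, B-5123, PPT-5671, PPT-5748, PPT-15272, PUL-15272 and B-152727, from 4 mice. B-152727 is the array's label; the IC50 table holds no such name but a B-15272, and the group of this line and its place in mouse 15272 rest on taking the names as 1 line. Low-IC50 lines were PPT-5193, PPT-3107, PPT-5486, PPT-6051, B-6051, LN1-15272, PPT-53631, HEP2-53631, PUL3-53631 and B-53631, from 6 mice. Mouse 15272 gave lines to both groups, so the 17 lines came from 9 mice, and lines of 1 mouse are not independent of each other. The prefix PPT marks a primary tumour, and 3 of the 7 high-IC50 lines and 5 of the 10 low-IC50 lines carried it. One Affymetrix mouse expression array was run per line on untreated cultures in DMEM, and 45037 probe sets that are not controls were measured.

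In the listed genotypes Cre recombinase was driven by the pancreatic Ptf1a or Pdx1 genes. Of the high-IC50 lines, PPT-5671 was listed with Ptf1aCre/+, LSL-PCNA ATG-fLuc/+ and LSL-R26 Tva-lacZ/+, and PPT-5748 with Ptf1aCre/+. Of the low-IC50 lines, PPT-5193, PPT-3107 and PPT-5486 were listed with Ptf1aCre/+ and LSL-p53R172H/+ (PPT-5486 with a further LSL-PCNA IRES-fLuc allele), and PPT-6051 and B-6051 with Pdx1-Cre and LSL-p53R172H/+. The sources used here list no genotype for HEP-5123, B-5123 and the lines of mice 15272 and 53631, which make up 5 of the 7 high-IC50 lines and 5 of the 10 low-IC50 lines. A listed Trp53 R172H allele therefore occurred in 5 low-IC50 lines and in 0 high-IC50 lines, and that allele and the IC50 group cannot be told apart in those lines. Without these 5, the low-IC50 side is 5 lines from 2 mice, 4 of mouse 53631 and LN1-15272, so every value given below without the R172H lines is close to a comparison with 1 mouse, and its p treats the lines as independent.

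PI3K is a lipid kinase that relays growth factor signals to AKT, and mTOR is a downstream kinase that promotes protein synthesis and growth. When the pathway is blocked, FOXO factors enter the nucleus, sterol and lipid synthesis genes tend to fall, and the cyclin-dependent kinase inhibitor p27, encoded by Cdkn1b, can accumulate and hold cells in G1. Efemp1 encodes fibulin-3, a secreted extracellular matrix glycoprotein with EGF-like repeats.

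Array-wide values were alike in both groups. Medians per array were 3.74 to 3.89 in high-IC50 lines and 3.67 to 3.85 in low-IC50 lines on the log2 scale, arrays correlated at 0.949 to 0.993, and no pair was identical. Cdh1 was 10.23, 10.78 and 11.26 (lowest, median, highest) in high-IC50 lines, against 10.80, 11.38 and 11.81 in low-IC50 lines. The groups overlapped, though 4 of the 7 high-IC50 lines lay below every low-IC50 line (mean difference -0.61). The nearest line outside the rule, ASC-53909, stood at 6.48 against 10.23 in HEP-5123, the nearest inside. Krt8 and Krt18, the keratin pair of simple epithelia, averaged 12.98 and 13.02 in high-IC50 lines and 13.27 and 13.23 in low-IC50 lines. Esrp1, an epithelial splicing regulator, averaged 3.22 in high-IC50 lines and 2.90 in low-IC50 lines, both below the median of all values (3.79). Over the list of 20 epithelial genes 8 differences were positive and 12 negative (51% of all probe sets were negative), with a median of -0.17. At an unadjusted limma p under 0.05, 2 were lower in high-IC50 lines (4.36% of all probe sets were) and 0 higher. The 2 were Krt19 and Cdh1, the gene that chose the lines. Without the R172H lines 14 were negative and 3 were lower at that p (3.77% of all probe sets were). Epithelial state was thus not matched in full between the groups. The list mean was 5.98 to 9.33 in high-IC50 lines, highest in PPT-15272 and PUL-15272 (7.97), and 6.91 to 8.17 in low-IC50 lines, highest in LN1-15272.

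The list means of leukocyte and endothelial markers were at most 4.16 in any line, while those of fibroblast and hepatocyte markers reached 9.14 and 5.20. The mean over 9 measured leukocyte markers was 3.35 to 4.16 in high-IC50 lines and 3.39 to 3.88 in low-IC50 lines, and that over 8 endothelial markers was 2.69 to 2.94 and 2.70 to 2.96. Ptprc, the pan-leukocyte CD45 gene, averaged 1.88 in high-IC50 lines and 2.15 in low-IC50 lines. Other members stood higher: 5 of the 9 leukocyte markers averaged above the median of all values (3.79), the highest at 5.27. Of the 8 endothelial markers 2 did, the highest at 4.46. The mean over 7 hepatocyte markers was 2.86 to 5.20 in high-IC50 lines and 3.27 to 5.00 in low-IC50 lines, and Apob, an apolipoprotein of liver and gut, averaged 6.76 in high-IC50 lines and 7.82 in low-IC50 lines. All 10 fibroblast markers had lower means in high-IC50 lines (51% of all probe sets did), with a median of -0.96. Only 1 was lower at an unadjusted limma p under 0.05, as were 4.36% of all probe sets. Without the R172H lines 9 were negative (50.5% of all probe sets were), 0 reached that p and the median was -0.41. The fibroblast list mean was 2.87 to 3.65 in high-IC50 lines, 2.97 to 9.14 in the 5 low-IC50 lines with a listed R172H allele and 3.07 to 5.16 in the other 5. Col3a1, a fibrillar collagen of fibroblasts, reached 13.01 in PPT-5486 and was 4.68 or lower in every high-IC50 line. In bulk cultures, fewer cells of a type and less RNA per cell cannot be told apart, and the part of fibroblast or hepatocyte marker RNA in the differences below was not tested.

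No probe set differed between high-IC50 and low-IC50 lines at an adjusted p of 0.05 by limma (Benjamini-Hochberg over all 45037; smallest adjusted p = 0.250). At an unadjusted p under 0.05, 1463 probe sets were higher in high-IC50 lines (3.25% of all) and 1962 were lower (4.36%). Without the R172H lines 0 probe sets passed the adjusted p as well, and 3.16% were higher and 3.77% lower at that unadjusted p. With the mouse as a random block 6.23% reached it. Over all lines the split of the calls was 42.7% higher to 57.3% lower, which became 27.9% to 72.1% when each array was centred on its median. Large differences leaned the same way, with 30 probe sets above 2 (0.0666%) and 65 below -2 (0.144%) on the log2 scale. Groups did not overlap for 1 higher probe set (0.00222%), of Tmem176a, and for 6 lower probe sets (0.0133%), of which 5 named a single gene: 1110065P20Rik, Utp11, 0610012G03Rik, Txk and Tbl1x. In what follows a gene is called lower or higher only as a statement on its mean, and p without a further word is unadjusted.

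Efemp1 had the largest difference of all probe sets. Its log2 signal was 1.72 in PPT-5748, 2.56 in B-152727, 3.95 in B-5123, 6.29 in PPT-5671, 6.63 in PPT-15272, 7.16 in HEP-5123 and 10.33 in PUL-15272, against 8.47, 10.38 and 11.03 (lowest, median, highest) in the 10 low-IC50 lines. The other high-IC50 lines, 6 of 7, lay below every low-IC50 line, and PUL-15272 lay within the low-IC50 range. The means were 5.52 ± 2.98 in high-IC50 lines (SD, n = 7) and 9.96 ± 0.92 in low-IC50 lines (SD, n = 10). The difference was -4.44 (SE 0.92; limma p = 0.000141, adjusted p = 0.348). Over all 19448 divisions of the lines into 7 and 10, a two-sided exact permutation test gave p = 0.000823. With 1 mean per mouse and group the groups separated (-4.50). The means were 1.72 to 6.51 over 4 mice on the high-IC50 side and 8.47 to 10.67 over 6 mice on the low-IC50 side. An exact permutation test gave p = 0.00952, the smallest that 210 divisions allow here. Mouse 15272 entered on both sides, and the test treats its 2 means as independent. The study selected this gene by an IC50 contrast on arrays that include these, so its p is no independent evidence.

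**Figure D1:**
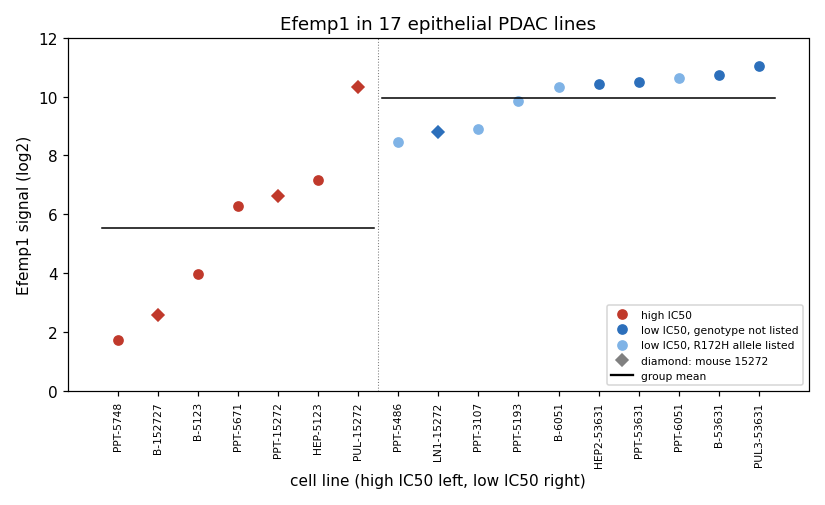
Efemp1 log2 signal of each epithelial line, high-IC50 lines to the left of low-IC50 lines, with points coloured by IC50 group and listed genotype and bars for group means. All but 1 of the 7 high-IC50 lines lie below 8.47, the lowest low-IC50 line, and PUL-15272 at 10.33 lies within the low-IC50 range.

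Within mouse 15272 the Efemp1 levels of PPT-15272 (6.63), PUL-15272 (10.33) and B-152727 (2.56) were set against 8.79 in LN1-15272, a difference of -2.28 on average. HEP-5123 and B-5123, of 1 mouse, were both low (7.16 and 3.95). The difference was -4.77 without the R172H lines and -2.50 (SE 0.54) per doubling of the IC50. Without PUL-15272 it was -5.24 (limma adjusted p = 0.0259), and without all lines of mouse 15272 it was -5.31 (adjusted p = 0.0432). Both settings leave out the only high-IC50 line within the low-IC50 range, so a larger difference was bound to follow and these p-values add no support. With any other single line or mouse left out, Efemp1 did not pass the adjusted threshold. With the mouse as a random block it was -4.23 (adjusted p = 0.794).

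Among genes on the array, Afg3l2 (a mitochondrial protease subunit), Gcnt3 (a mucin-type glycosyltransferase), Gm4792, Ephx2 and Rhpn2 followed Efemp1 most closely over the 17 lines, with Pearson r of 0.861, 0.854, 0.844, 0.838 and 0.835. The most opposite were Cald1 (caldesmon, -0.865), 2310057J18Rik (-0.853), Zfas1 (-0.810), Sfmbt1 (-0.809) and Dram1 (-0.808). These are descriptions over lines that share mice. Of the other 5 measured fibulin family genes, Fbln1 was lower in high-IC50 lines (-1.12, p = 0.0212), and the remaining 4 did not reach an unadjusted p of 0.05. Fbln1 stood at 4.15 ± 0.26 in high-IC50 lines (SD, n = 7) and 5.26 ± 1.23 in low-IC50 lines (SD, n = 10), and without the R172H lines its difference was -0.22.

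Because Efemp1 differed most, the 250 bases before its start are shown with CG dinucleotides, the sites of DNA methylation in mammals, in capitals. The RefSeq sequence (GRCm38.p6, plus strand) lies at chr11:28852955-28853204. It holds 10 CG dinucleotides against a median of 6 over 32851 promoters of that length, and 53.6% G and C against a median of 52.4%. Methylation was not measured on these arrays.
Efemp1: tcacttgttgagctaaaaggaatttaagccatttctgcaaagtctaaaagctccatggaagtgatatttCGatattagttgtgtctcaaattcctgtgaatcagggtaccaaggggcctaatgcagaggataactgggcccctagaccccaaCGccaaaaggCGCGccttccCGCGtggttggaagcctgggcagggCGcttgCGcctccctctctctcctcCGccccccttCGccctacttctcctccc

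Cdkn1b and Skp2, the ubiquitin ligase subunit that directs p27 to degradation, did not pass the test at the transcript level. Cdkn1b was 9.0, 9.65 and 10.10 in high-IC50 lines, against 8.90, 9.39 and 9.79 in low-IC50 lines, and the groups overlapped in all but 2 lines on either side. The difference was 0.21 (SE 0.16; limma adjusted p = 0.793; exact permutation p = 0.229). Per doubling of the IC50 Cdkn1b rose by 0.19 (limma p = 0.0422, adjusted p = 0.730). Its difference was 0.38 without the R172H lines, 0.094 on means per mouse and group (exact permutation p = 0.619) and -0.31 within mouse 15272. Skp2 was 6.38, 7.93 and 8.58 in high-IC50 lines, against 7.18, 8.29 and 9.33 in low-IC50 lines, with PPT-5671 and PPT-5748 below all low-IC50 lines. Its difference was -0.51 (SE 0.31; adjusted p = 0.736; exact permutation p = 0.151), and 1 of its 6 probe sets had the other sign. On means per mouse and group Skp2 differed by -0.99 (exact permutation p = 0.0857), and without the R172H lines by -0.23. Per doubling of the IC50 it changed by -0.13 (limma p = 0.483). Ccnd2, a G1 cyclin, was 6.86 to 11.94 in high-IC50 lines and 9.57 to 11.80 in low-IC50 lines (-1.17, p = 0.0754).

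In several genes, picked after their values were seen, the only high-IC50 lines not below all low-IC50 lines were of mouse 15272. For Tpm2 these were all 3 of its high-IC50 lines, for Homer2 and Lpl PUL-15272 and B-152727, and for Ephx2 PUL-15272 alone. Leaving out that mouse or PUL-15272 removes such lines, so the adjusted p-values below add no support. Tpm2, a tropomyosin that stabilises actin filaments, was 5.65 in PPT-5748, 5.70 in PPT-5671, 6.18 in B-5123 and 6.40 in HEP-5123, and 10.08 to 11.82 in the 3 high-IC50 lines of mouse 15272, against 9.85, 10.60 and 11.18 in low-IC50 lines. The high-IC50 lines thus comprised 4 lines below all low-IC50 lines and 3 lines at the low-IC50 level. The difference was -2.49 (p = 0.00526), and without mouse 15272 it was -4.48 (limma adjusted p = 4.61e-06). Homer2, a synaptic scaffold protein, was 2.04 to 2.75 in 5 high-IC50 lines, 6.46 in B-152727 and 8.58 in PUL-15272, against 5.33, 7.14 and 8.83 in low-IC50 lines. Its difference was -3.22, and -4.83 without mouse 15272 (adjusted p = 1.47e-05). Ephx2, a soluble epoxide hydrolase of lipid mediators, was 3.71 to 4.86 in 6 high-IC50 lines and 8.32 in PUL-15272, against 6.05, 7.26 and 7.83 in low-IC50 lines. Without PUL-15272 alone, Ephx2 differed by -2.84 (adjusted p = 0.000229). Lpl, lipoprotein lipase, was 2.93 to 4.39 in 5 high-IC50 lines, 6.57 in PUL-15272 and 7.75 in B-152727, against 5.35, 6.75 and 7.66 in low-IC50 lines (-2.0, and -3.02 without mouse 15272, adjusted p = 0.0150). In all, 15 probe sets passed without mouse 15272 and 7 without PUL-15272.

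**Figure D2:**
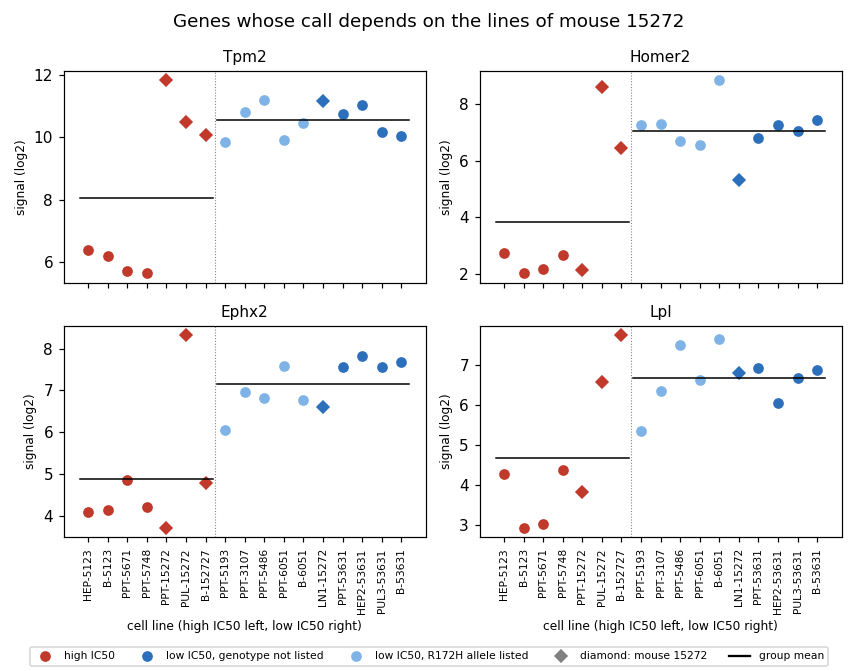
Log2 signals of Tpm2, Homer2, Ephx2 and Lpl in each line, high-IC50 lines to the left of low-IC50 lines, with lines of mouse 15272 marked. PUL-15272 lies within or above the low-IC50 range of all 4 genes, while the 4 high-IC50 lines of other mice lie below it.

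Among genes higher in high-IC50 lines, Gimap9 had the smallest p. This GTPase of the immunity-associated family was 5.23, 6.54 and 7.01 in high-IC50 lines, against 1.92, 2.80 and 5.83 in low-IC50 lines. Only LN1-15272 of the low-IC50 lines overlapped the high-IC50 range. The difference was 2.85 (SE 0.53; limma p = 4.12e-05, adjusted p = 0.348). Inhbb, the beta B subunit of activins and inhibins, was 5.48, 7.98 and 8.14 in high-IC50 lines, against 2.13, 2.90 and 7.60 in low-IC50 lines. PPT-5486 was the only low-IC50 line in the high-IC50 range, and the difference was 3.5 (SE 0.73, p = 0.000152).

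The other 8 genes with the smallest p on this side differed by 0.46 to 1.30. They were Rnf169 (1.21), a ubiquitin-binding protein of the DNA damage response, Slc22a15 (1.22), a membrane transporter, Sfmbt1 (0.65), a chromatin protein with MBT domains, Kat7 (0.52), a histone acetyltransferase, Zfp267 (0.47), Anxa6 (0.70), a membrane-binding annexin, Poln (0.46), a DNA polymerase, and Ifi204 (1.30), an interferon-inducible protein of the p200 family. Rnf169 was 3.9, 4.39 and 5.88 in high-IC50 lines, against 2.58, 3.36 and 4.0 in low-IC50 lines, with 6 of 7 high-IC50 lines above all low-IC50 lines. For Kat7, 1 of 3 probe sets had the other sign, and it was the brightest, at 7.72 in high-IC50 and 7.75 in low-IC50 lines (-0.031). The Kat7 probe set with the small p averaged 4.34 and 3.85, close to the median of all values (3.79).

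Genes with the smallest p among those lower in high-IC50 lines had narrow spreads, apart from Efemp1 and Pdlim4. 1110065P20Rik was 7.16, 7.52 and 8.01 in high-IC50 lines, against 8.03, 8.21 and 8.72 in low-IC50 lines, without overlap (-0.73, SE 0.12; limma adjusted p = 0.250). Utp11, a factor of small ribosomal subunit assembly, was 6.86, 7.45 and 7.59 in high-IC50 lines, against 7.60, 8.06 and 8.28 in low-IC50 lines, also without overlap, though 1 of its 3 probe sets had the other sign. Focad, which encodes focadhesin, differed by -0.75 (SE 0.14). These 3 genes lie on chromosome 4.

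Pdlim4, a PDZ and LIM domain protein of the actin cytoskeleton, was 3.45, 3.55 and 5.60 in high-IC50 lines, against 5.29, 6.70 and 9.34 in low-IC50 lines. B-152727 was the only high-IC50 line in the low-IC50 range. The difference was -2.83 (SE 0.55, p = 6.74e-05) and -3.64 without the R172H lines. The other 4 of the smallest p were 0610012G03Rik (-0.50), Cpsf3 (-0.38), the endonuclease of pre-mRNA 3' ends, Oard1 (-0.64), an ADP-ribose hydrolase and Lactb2 (-0.57), a mitochondrial endoribonuclease. Txk, whose groups did not overlap either, was 2.01 to 2.24 in high-IC50 lines and 2.36 to 2.72 in low-IC50 lines, below the median of all values.

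Genes of a gastric-like, well differentiated epithelium were lower in high-IC50 lines on balance. Of 13 measured members 10 had negative differences (51% of all probe sets did), 5 at an unadjusted p under 0.05 (4.36% of all), 0 were higher, and the list median was -1.27. The list mean per line was 4.52 to 7.34 in high-IC50 lines and 6.20 to 8.11 in low-IC50 lines. Without the R172H lines the list median was -0.26 with the count still at 5 (3.77% of all probe sets were lower). The proportion of well and poorly differentiated cells within each line was not measured.

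Anxa10, an annexin of gastric epithelium, was 3.28, 7.82 and 10.53 in high-IC50 lines, against 9.04, 10.49 and 12.13 in low-IC50 lines. In all, 5 high-IC50 lines lay below all low-IC50 lines, and PUL-15272 and B-152727 lay within their range (-3.39, SE 0.88, p = 0.00124). Ctse, the aspartic protease cathepsin E of the stomach lining, was 6.0, 7.46 and 12 in high-IC50 lines, against 10.13, 11.86 and 12.92 in low-IC50 lines. HEP-5123, B-5123 and PUL-15272 lay in the low-IC50 range, and the difference was -2.92 (SE 0.77, p = 0.00141), with the second probe set of the opposite sign. Tff1, a mucosal trefoil peptide, was 6.34, 9.55 and 11.55 in high-IC50 lines, against 9.96, 11.65 and 12.50 in low-IC50 lines (-2.56, SE 0.70, p = 0.00182). Muc1, a membrane mucin, was lower by a mean of -1.35, and Lgals4, an epithelial galectin, by -2.49, with ranges that overlapped.

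**Figure D3:**
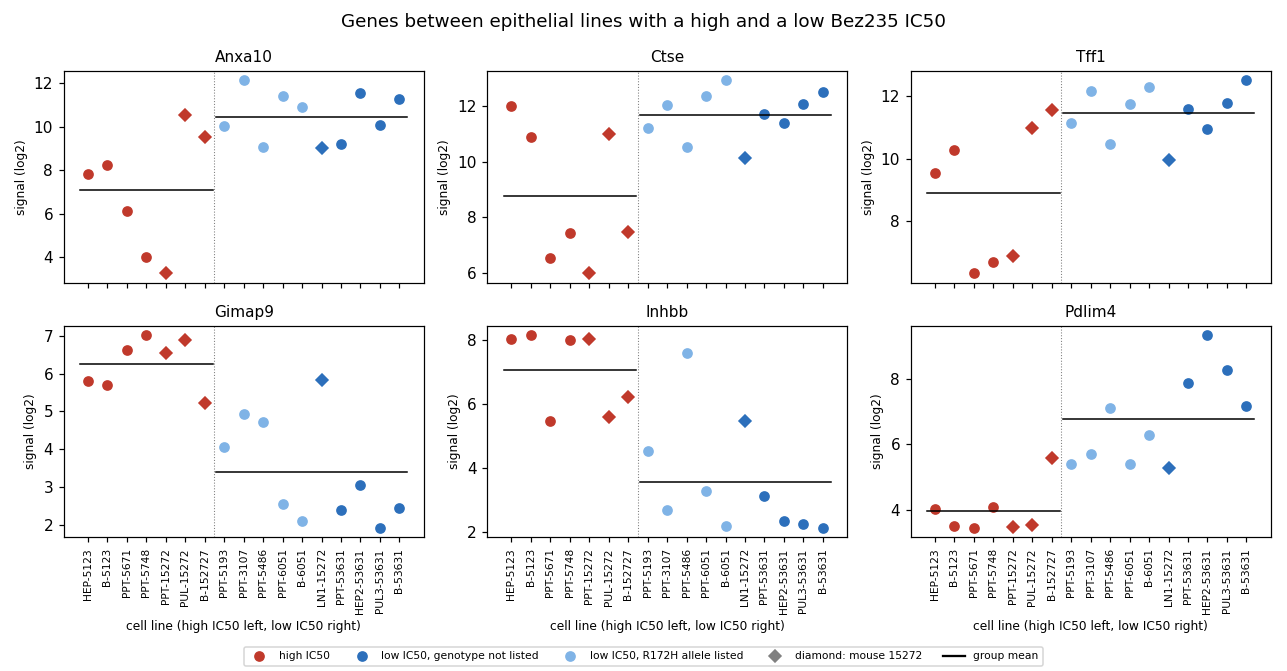
Log2 signals of Anxa10, Ctse, Tff1, Gimap9, Inhbb and Pdlim4 in each line, high-IC50 lines to the left of low-IC50 lines, with the group means as bars. PPT-5671, PPT-5748 and PPT-15272 lie below all low-IC50 lines for the 3 gastric-like genes, and B-152727 is the only high-IC50 line within the low-IC50 range of Pdlim4.

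Gata6, an endodermal transcription factor of pancreas and stomach, was 5.61, 7.86 and 8.97 in high-IC50 lines, against 7.21, 8.88 and 9.12 in low-IC50 lines (-0.87, p = 0.0426). Of 12 pancreas and foregut factors 2 were lower at an unadjusted p under 0.05 (4.36% of all probe sets were). Of 8 squamous markers 2 were lower (4.36% of all probe sets were), though 4 differences were positive and 4 negative with a median of -0.023: Ivl (involucrin, -2.35, p = 0.00543) and Sprr1a (a cornified envelope protein, -1.52, p = 0.00788). Krt19, a ductal keratin, was also lower (-0.74, p = 0.0194), at 10.29 to 12.83 in high-IC50 lines and 11.71 to 13.18 in low-IC50 lines. None of 15 mesenchymal genes reached an unadjusted p of 0.05 in either direction, and their median was 0.0054. Without the R172H lines 2 were higher at that p (3.16% of all probe sets were), among them Zeb2, a repressor of Cdh1 (1.13), and the median was 0.25. Vim, the intermediate filament vimentin, averaged 12.35 in high-IC50 lines and 12.81 in low-IC50 lines, and the list mean was 5.96 to 7.70 in high-IC50 lines and 5.92 to 9.66 in low-IC50 lines, highest in PPT-5486.

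Sterol and fatty acid synthesis genes had lower means in high-IC50 lines over the 17 lines. All 11 cholesterol synthesis genes and all 9 fatty acid synthesis genes had negative differences, against 51% of all probe sets, and 4 and 6 of them reached an unadjusted p under 0.05, against 4.36%. The list medians were -0.67 and -0.35, and -0.58 and -0.40 without the R172H lines, where 1 and 3 genes reached that p (3.77% of all probe sets were lower). Within mouse 15272 2 of 11 cholesterol genes were positive and the median was -0.24, and over the 5 lines whose IC50 interval excludes 10 nmol/L (1 high-IC50, 4 low-IC50) that median was 0.36. The cholesterol list mean was 8.19 to 10.09 in high-IC50 lines and 9.11 to 10.51 in low-IC50 lines, so the groups overlapped widely, and the fatty acid list mean was 9.10 to 9.82 in high-IC50 lines and 9.54 to 10.32 in low-IC50 lines.

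Insig1, an endoplasmic reticulum protein that retains the sterol sensor, was 8.10, 8.65 and 9.29 in high-IC50 lines, against 8.51, 9.39 and 10.38 in low-IC50 lines (-0.78, SE 0.26, p = 0.00871). Fdps, farnesyl diphosphate synthase, was 9.57, 10.63 and 11.33 in high-IC50 lines, against 10.64, 11.21 and 12.39 in low-IC50 lines (-0.76, p = 0.0161). In Fdps 4 high-IC50 lines lay below all low-IC50 lines. Srebf2, the transcription factor of sterol synthesis, differed by -0.57, and Idi1, which isomerises isopentenyl diphosphate, by -0.85. Scd1, the desaturase that makes oleate, was 8.39, 9.70 and 10.48 in high-IC50 lines, against 8.89, 10.64 and 11.51 in low-IC50 lines (-1.09, SE 0.38, p = 0.0108). Me1 (malic enzyme, a source of NADPH) differed by -0.67, Scd2 (a second desaturase) by -0.43 and Fasn (fatty acid synthase) by -0.35.

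The 250 bases before the start of 4 of these genes are shown because the differences of both lists shared a sign and the regulators SREBP and NF-Y are known to act near such starts. Capitals mark TCACCCCA, the core of a sterol regulatory element, and CCAAT, the NF-Y box, on either strand, so that CCAAT on the opposite strand reads ATTGG. TCACCCCA was in 1.34% of all 32851 promoters and in 2 of the 10 promoters matched to 8 of the 11 cholesterol genes (Hmgcs1 and Srebf2). CCAAT was in 33.8% of all promoters, in 8 of those 10 and in 5 of the 10 promoters matched to 7 fatty acid genes. TCACCCCA was in 0 of these 10 fatty acid promoters. CCAAT was about as common in 2 lists not of lipid synthesis, with 6 of 11 promoters of p53 targets (54.5%) and 4 of 8 promoters of gastric-like genes (50%). A match is a description of letters, not a binding site. The RefSeq sequences (GRCm38.p6) lie at chr5:28071162-28071411 for Insig1, chr13:8885356-8885605 for Idi1 and chr15:82147019-82147268 for Srebf2, all on the plus strand, and at chr11:120824548-120824797 on the minus strand for Fasn.
Insig1: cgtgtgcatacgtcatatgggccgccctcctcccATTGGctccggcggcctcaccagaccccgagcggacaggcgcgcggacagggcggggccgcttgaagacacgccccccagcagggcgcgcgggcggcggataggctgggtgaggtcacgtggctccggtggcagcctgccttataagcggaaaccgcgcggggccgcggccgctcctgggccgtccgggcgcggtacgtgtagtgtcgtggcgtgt
Idi1: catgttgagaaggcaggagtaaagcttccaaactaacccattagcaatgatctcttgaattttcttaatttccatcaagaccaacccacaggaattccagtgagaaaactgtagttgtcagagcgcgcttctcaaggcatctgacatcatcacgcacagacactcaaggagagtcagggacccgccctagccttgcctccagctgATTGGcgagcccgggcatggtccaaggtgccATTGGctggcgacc
Srebf2: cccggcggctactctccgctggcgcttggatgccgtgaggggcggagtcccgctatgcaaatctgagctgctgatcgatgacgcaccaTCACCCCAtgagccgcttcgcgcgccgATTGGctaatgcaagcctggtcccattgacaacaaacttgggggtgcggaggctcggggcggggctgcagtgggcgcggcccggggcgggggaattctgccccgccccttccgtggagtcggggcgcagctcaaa
Fasn: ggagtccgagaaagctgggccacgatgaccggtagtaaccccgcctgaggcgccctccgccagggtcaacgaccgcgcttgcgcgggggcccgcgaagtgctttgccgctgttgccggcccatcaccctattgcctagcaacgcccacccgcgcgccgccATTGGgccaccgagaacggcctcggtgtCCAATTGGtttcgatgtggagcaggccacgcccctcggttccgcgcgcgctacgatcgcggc

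Transcriptional targets of p53, the tumour suppressor encoded by Trp53, had higher means in high-IC50 lines in 12 of 12 measured cases (49% of all probe sets were positive). Of these, 6 reached an unadjusted p under 0.05 (3.25% of all), and the list median was 0.77. This went with the listed alleles: the list mean was 8.08 to 9.29 in high-IC50 lines, 6.84 to 7.56 in the 5 low-IC50 lines with a listed R172H allele, and 8.03 to 8.38 in the other 5. Without the R172H lines the median was 0.18 and 1 of 12 was higher at that p (3.16% of all).

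Cdkn1a (p21, a brake on the cell cycle) was 9.09, 10.56 and 11.39 in high-IC50 lines, against 6.20 to 7.45 in the R172H low-IC50 lines and 10.03 to 10.70 in the other low-IC50 lines. The R172H lines lay below all other lines, which overlapped each other. Its difference over all 17 lines was 1.81 (SE 0.68, p = 0.0158) and 0.13 (SE 0.33) without the R172H lines. Zmat3, a p53-induced RNA-binding protein, behaved alike, with differences of 1.06 and 0.20. Mdm2, the ligase that degrades p53, differed by 0.98 and 0.45, and Trp53inp1, a stress-induced nuclear protein, by 1.19 and 0.98.

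The R172H lines differed at other loci too, as genes picked after their values were seen show. Cdkn2a, which encodes the p16 and p19Arf tumour suppressors on chromosome 4, was 1.80 to 7.68 in high-IC50 lines, against 10.35 to 11.37 in the R172H low-IC50 lines and 1.67 to 3.33 in the other low-IC50 lines. Its neighbour Cdkn2b was 2.41 to 7.84 in high-IC50 lines, against 9.03 to 10.03 in the R172H low-IC50 lines. Xist, the RNA that coats an inactive X chromosome, was 4.37 in PPT-5671 and 10.93 to 12.09 in the other high-IC50 lines, against 3.49 to 4.34 in the R172H low-IC50 lines and 10.48 to 12.04 in the other low-IC50 lines. Eif2s3y, a Y-linked translation factor gene, was 1.45 to 2.81 in high-IC50 lines and 7.69 to 8.49 in the R172H low-IC50 lines. Thus the listed allele, the Cdkn2a locus, the X- and Y-linked signals and the IC50 group cannot be told apart over those lines. Mtap, a methionine salvage enzyme gene beside Cdkn2a, was 3.91, 4.46 and 4.70 in the high-IC50 lines of mouse 15272, against 5.63 in its low-IC50 line LN1-15272, and was 9.01 or above in every other line.

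**Figure D4:**
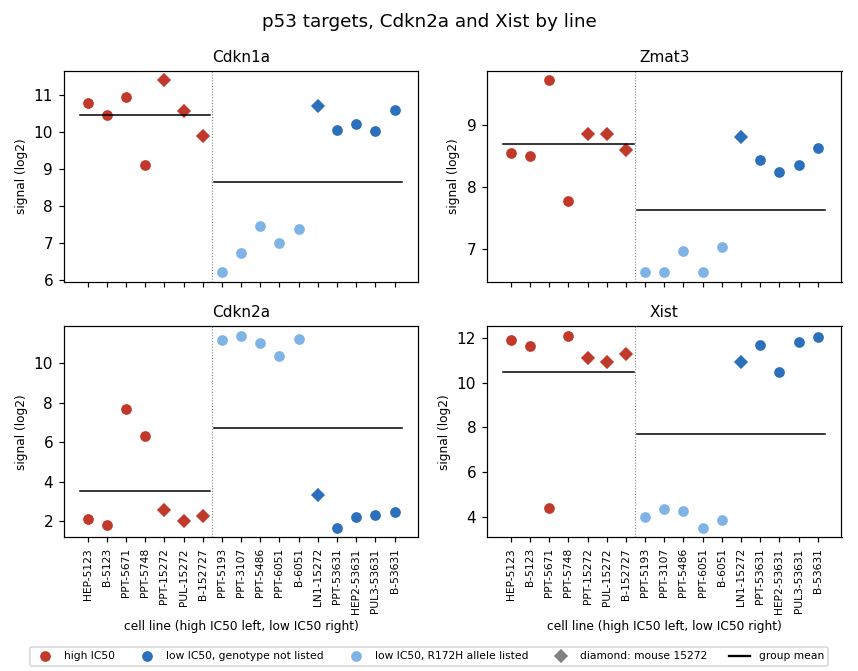
Log2 signals of Cdkn1a, Zmat3, Cdkn2a and Xist in each line, high-IC50 lines to the left of low-IC50 lines, with points coloured by listed genotype. The 5 low-IC50 lines with a listed R172H allele hold the lowest Cdkn1a (6.20 to 7.45) and the highest Cdkn2a (10.35 to 11.37) of the 17 lines.

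Few transcripts of the drug's target pathway reached an unadjusted p under 0.05. None of 10 measured PI3K subunit genes reached an unadjusted p of 0.05, and their median was 0.15. When the R172H lines were left out 2 were higher at that p (3.16% of all probe sets were), Pik3r3 (1.09) and Pik3r4 (0.53). In that setting 9 of 10 were positive and the median was 0.26, whereas without mouse 53631 the median was -0.024. Pik3ca, the catalytic subunit p110-alpha, was 7.59, 8.06 and 8.62 in high-IC50 lines, against 7.62, 7.96 and 8.27 in low-IC50 lines (0.21, SE 0.13), and Pik3cb, p110-beta, differed by 0.31 (SE 0.23). Mtor itself averaged 7.34 in high-IC50 lines and 7.46 in low-IC50 lines (-0.12, SE 0.23), and Rptor and Rictor, which define its 2 complexes, differed by -0.14 and -0.11.

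Of 17 mTOR complex and regulator genes 2 were lower at an unadjusted p under 0.05 (4.36% of all probe sets were) and 0 higher, and the list median was -0.12. With the R172H lines left out 1 was higher and 1 lower (3.16% and 3.77% of all probe sets), with a median of -0.015. Tbc1d7, the third subunit of the TSC complex that restrains mTORC1, was 6.48, 6.82 and 7.28 in high-IC50 lines, against 7.02, 7.32 and 7.80 in low-IC50 lines. In 6 of 7 cases the high-IC50 line lay below all low-IC50 lines (-0.52, SE 0.13, p = 0.000651; limma adjusted p = 0.413), and 1 of its 2 probe sets had the other sign. Rraga, a Rag GTPase that brings mTORC1 to the lysosome, was 8.02, 8.41 and 8.62 in high-IC50 lines, against 8.43, 8.72 and 9.17 in low-IC50 lines (-0.46, SE 0.13, p = 0.00192). Deptor, an mTOR-binding inhibitor, differed by -0.69 (p = 0.0652).

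Of 6 AKT, SGK and PDK1 genes, Sgk2 (-0.81, p = 0.0047) and Akt2 (-0.17, p = 0.0128) were lower at an unadjusted p under 0.05 (4.36% of all probe sets were). Akt2 was 7.35 to 7.56 in high-IC50 lines and 7.41 to 7.72 in low-IC50 lines, and 1 of its 3 probe sets had the other sign. None of 8 mTORC1 effectors reached an unadjusted p of 0.05 (median -0.17), and 1 of 14 FOXO factors and targets was higher at it (3.25% of all probe sets were). Phosphorylation, through which this pathway acts, was not measured.

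Proliferation genes had lower means in high-IC50 lines in 18 of 18 cases (51% of all probe sets did). Only Pcna, the DNA polymerase clamp, was lower at an unadjusted p under 0.05 (-0.46, SE 0.18, p = 0.0200), as were 4.36% of all probe sets. The list median was -0.27, and -0.079 without PPT-5748. The list mean was 8.62 in PPT-5748, 8.98 in PPT-5671 and 9.64 to 10.05 in the other high-IC50 lines, against 9.29 to 10.10 in low-IC50 lines. Pcna was 10.74, 11.69 and 12.03 in high-IC50 lines, against 11.53, 12.11 and 12.62 in low-IC50 lines, with PPT-5671 the lowest.

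Immune-related lists leaned the other way. Of 14 interferon response genes 12 were positive (median 0.38), and all 10 genes of MHC class I presentation were (median 0.50), against 49% of all probe sets. At an unadjusted p under 0.05 only 1 and 0 of them were higher (3.25% of all). The interferon median was 0.068 without PPT-5748, whose list mean was 6.20 against 4.11 to 4.99 in the other high-IC50 lines and 3.83 to 5.18 in low-IC50 lines. The MHC class I median was 0.21 without the R172H lines, with 8 of 10 positive. Bst2, the membrane protein tetherin, was 7.53, 8.35 and 9.56 in high-IC50 lines, against 6.73, 7.58 and 8.70 in low-IC50 lines (0.72, p = 0.0236). Cxcl10, an interferon-induced chemokine, differed by 0.84, and Psmb8, an immunoproteasome subunit, by 0.56, neither at that p. Of 15 NF-kB and cytokine genes 2 were higher (3.25% of all probe sets were), and 5 were without the R172H lines (3.16% of all). Lcn2, an iron-siderophore-binding lipocalin, was 3.29, 7.89 and 9.65 in high-IC50 lines, against 2.46, 3.33 and 8.97 in low-IC50 lines. PUL-15272 was the only low one of the high-IC50 lines and LN1-15272 the highest of the low-IC50 lines, so within mouse 15272 the difference was -2.24, against 3.39 (SE 0.93, p = 0.00186) over all lines. Relb, an NF-kB subunit, differed by 0.83 (p = 0.0229). The mean over leukocyte markers was at most 4.16 in any line, as given above.

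Over 14 collagen and basement membrane genes 7 differences were positive and 7 negative (median -0.032). At an unadjusted p under 0.05, 1 was higher and 2 were lower (3.25% and 4.36% of all probe sets). Over 11 integrins 6 were positive and 5 negative (median 0.031), with 1 lower (4.36% of all). Col4a1, a type IV collagen chain, was 8.62, 9.03 and 9.70 in high-IC50 lines, against 9.40, 9.80 and 11.04 in low-IC50 lines (-0.92, SE 0.21, p = 0.00044). Col4a2, its partner chain, was 7.06, 7.76 and 8.46 in high-IC50 lines, against 8.31, 8.62 and 9.46 in low-IC50 lines (-0.87, SE 0.20, p = 0.000479). In either gene 5 high-IC50 lines lay below all low-IC50 lines. Itga6, a laminin receptor subunit, was 9.41, 9.85 and 10.72 in high-IC50 lines, against 10.22, 10.71 and 11.05 in low-IC50 lines, with 6 of 7 high-IC50 lines below all low-IC50 lines (-0.69, SE 0.17, p = 0.000652). Col7a1, the anchoring fibril collagen, was higher (1.16, p = 0.0307).

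Among receptor tyrosine kinases 3 of 14 were lower (4.36% of all probe sets were) and 0 higher, though 8 differences were positive and the median was 0.048. Lower ones included Fgfr4 (-1.25, p = 0.0342) and Mst1r, the receptor of macrophage-stimulating protein (-1.11, p = 0.0479). Of 9 NRF2 targets 3 were lower (the same 4.36% applies), including the detoxifying enzymes Gsta4 (-1.37, p = 0.00969) and Nqo1 (-1.59, p = 0.0201). Of 10 Hippo effectors and targets 2 were higher (3.25% of all probe sets were), including Ccn1, a matricellular YAP target (1.43, p = 0.0168). Of 15 Wnt pathway genes 1 was higher and 2 were lower (3.25% and 4.36% of all). One of the lower was Rnf43, a ligase that removes Wnt receptors (-1.07, p = 0.0157). In all, 508 of the 548 entries of 44 lists were measured, and 0 of them reached an adjusted p of 0.05.

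Using log2 IC50 as a continuous measure, no probe set passed an adjusted p of 0.05 either (smallest 0.612), and 1422 probe sets had a positive and 1605 a negative slope at an unadjusted p under 0.05 (3.16% and 3.56%). Per doubling of the IC50, the 5 genes with the smallest p and a positive slope were Pheta1 (0.19), an endosomal adaptor, Slpi (0.59), a secreted leukocyte protease inhibitor, Ovca2 (0.40), Sod3 (1.14), extracellular superoxide dismutase, and Ifi202b (1.84), an interferon-inducible p200 protein. The negative ones were Spry2 (-0.34), which dampens signals from receptor tyrosine kinases and whose brighter probe set had the other sign between the groups (0.10), Niban1 (-1.37), a stress-responsive protein, Coa3 (-0.29), a cytochrome oxidase assembly factor, Rpp40 (-0.27), a ribonuclease P subunit, and Susd1 (-0.59). Among the epithelial lines B-152727 held the highest value of Pheta1 (6.53), Slpi (7.70), Ovca2 (6.64), Sod3 (6.91) and Ifi202b (7.5). It held the lowest of Spry2 (4.52), Niban1 (3.0), Coa3 (8.53) and Rpp40 (6.26), but not of Susd1. By the name match given above, this line also had the highest IC50 of the epithelial lines. These slopes may therefore rest largely on B-152727, and none is given without it. Niban1 was 3.0, 6.03 and 7.75 in high-IC50 lines, against 5.95, 8.09 and 8.69 in low-IC50 lines. Slpi was 5.57, 6.17 and 7.70 in high-IC50 lines, against 5.02, 5.22 and 6.04 in low-IC50 lines, with 4 high-IC50 lines above all low-IC50 lines.

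The 6 lines left out by the Cdh1 rule allowed a test of whether the IC50 contrast differed from that of the epithelial lines. Those with a high IC50 were ASC-5193 (Ptf1aCre/+, LSL-p53R172H/+, of the mouse of PPT-5193) and ASC-53909 (Ptf1aCre/+, LSL-R26 Tva-lacZ/+). Those with a low IC50 were PPT-3250 (Pdx1-Cre, LSL-PCNA ATG-fLuc/+, LSL-R26 Tva-lacZ/+), PPT-5320 (Ptf1aCre/+, LSL-PCNA IRES-fLuc/+), PPT-16992 and PPT-17728 (both Ptf1aCre/+, LSL-R26 Tva-lacZ/+). All low-IC50 ones were primary tumour lines and neither high-IC50 one was, so line prefix and IC50 group cannot be told apart there, and the only listed R172H allele lay on the high-IC50 side. By limma over 23 arrays, 52 probe sets (0.115%) had a different contrast at an adjusted p under 0.05 (9.69% at an unadjusted p under 0.05), a count that rested on the 2 high-IC50 lines (223 without ASC-5193, 788 without ASC-53909, each with a lone line assumed to vary like the other groups). Among the genes named above these included Tbc1d7, with -0.52 among epithelial lines and 0.95 among the others (difference -1.47, adjusted p = 0.0272), and Focad, with -0.75 and 0.93 (difference -1.68, adjusted p = 0.0309). Efemp1 had lower means in the high-IC50 lines of both kinds, with differences of -4.44 and -5.25. Of the left-out lines ASC-5193 stood at 2.26 and ASC-53909 at 8.44, against 9.96 to 11.41 in the 4 low-IC50 lines, so the -5.25 was -2.16 without ASC-5193 and -8.34 without ASC-53909. The difference of 0.81 (SE 1.93) had an adjusted p of 0.934, which leaves room for unequal contrasts.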

How the data were processed

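Expression was measured on 23 Affymetrix mouse arrays, 1 per PDAC line, of which the 17 lines with Cdh1 at 8 or above entered. Deposited values are log2 signals that the authors normalised; the supplementary methods name variance stabilisation and the submitters' processing notes name RMA, so the method that made the table is not settled, and no version is given for either. Values were used as deposited, and 64 control probe sets of 45101 were left out. Probe sets were named through GEO's platform annotation (34945 with 1 symbol, 932 with several, 9160 with none, which were tested but not named). Of several probe sets of a listed gene the one with the highest mean over the 17 lines was used. Promoters came from RefSeq tables (GRCm38.p6).

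For the comparison of high-IC50 with low-IC50 lines, limma (version 3.58.1, R 4.3.3) was fitted (Benjamini-Hochberg over 45037 probe sets, threshold 0.05) without covariates, and Efemp1, Cdkn1b and Skp2 also by a two-sided exact permutation test (Python 3.11.15, scipy 1.17.1). The fit was tested on simulated data in which all lines were independent, so that test says nothing on p-values when lines share a mouse. Because 9 mice gave 17 lines, the mouse was tried as a random block (correlation 0.227) and as a fixed block; deviations from the group means correlated at a median of 0.149 over 14 pairs of lines from 1 mouse and -0.063 over 122 other pairs. Arrays carry no read depth, and their number limits the precision. Nothing in the labels says that lines of a group were replicate cultures, so p-values measure the spread between these lines. Other alternatives were leaving out each line or mouse, the R172H lines or dim probe sets, centring, a t-test, trended and robust variances, the IC50 as a slope, and only lines whose IC50 interval excluded 10 nmol/L.

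Genes named were Efemp1, Cdkn1b, Skp2, the 10 probe sets with the smallest p per direction (bright enough in 1 group and with 1 symbol), the 5 per direction of the slope, up to 4 of each list with the smallest p, and cell type markers. Cdkn2a, Cdkn2b, Mtap, Xist, Eif2s3y, Tmem176a, Txk, Tbl1x, Lgals4, Ephx2, Homer2, Tpm2, Lpl, Il6, Mtor, Rptor, Rictor, Pik3r3 and Pik3r4 were named after values were seen. The lines, lists and tests were chosen with earlier results of these data known. One item of the listed genotypes is not reported here.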

Additional observations from a re-analysis of the deposited data

Results flagged for a closer look

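Values of 1 line stood far from the others of its group in 19 cases among the named genes, with the largest gap to the next line set against Dixon's critical value, a rule that chance meets in about 1 in 20 groups. In high-IC50 lines these were Pdlim4 in B-152727 (5.60), Ifi202b in PPT-5748 (2.89), Col3a1 (4.68) and Scd2 (11.33) in HEP-5123, Fasn in PPT-15272 (9.68), Pcna (10.74), Cdkn2b (7.84) and Xist (4.37) in PPT-5671, Pheta1 in B-152727 (6.53) and Ephx2 in PUL-15272 (8.32). In low-IC50 lines they were 0610012G03Rik in PPT-3107 (9.84), Oard1 (7.79) and Col3a1 (13.01) in PPT-5486, Pheta1 in PPT-53631 (5.57), and Niban1 (5.95), Gata6 (7.21), Lcn2 (8.97), Mtap (5.63) and Ovca2 (6.27) in LN1-15272, the low-IC50 line of a mouse whose other 3 lines had a high IC50.

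For Focad and Tbc1d7 the IC50 contrast differed between epithelial lines and the 6 others, by -1.68 and -1.47 (limma adjusted p = 0.0309 and 0.0272).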

How the results depend on the processing

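Over 42 alternatives, 63 of 91 named genes kept the sign of their difference and 28 did not in at least 1, and 30 of 3815 values had the other sign. With the mouse as a fixed block only mouse 15272 carries the contrast (3 lines against LN1-15272): 8 probe sets passed, 702 were higher and 536 lower at an unadjusted p under 0.05, the p53 target and gastric-like medians were 0.022 and -0.33, and the signs turned for Cdkn1b (-0.31), Sfmbt1 (-0.033), Ifi204 (-0.0067), Sod3 (-0.07), Zmat3 (-0.037), Cdkn1a (-0.087), Deptor (0.35), Sgk2 (0.29), Fbln1 (0.30), Lcn2 (-2.24), Bst2 (-0.28), Eif2s3y (0.21), Ovca2 (-0.11) and Homer2 (0.40). With the mouse as a random block 0 probe sets passed, as with a t-test and trended or robust variances. Only lines whose IC50 interval excludes 10 nmol/L (1 high-IC50 and 4 low-IC50 lines, the lone line assumed to vary like the others) gave 77 calls, Efemp1 at -8.01, gastric-like and cholesterol medians of -0.31 and 0.36, and turned Idi1 (0.38), Scd1 (0.28), Scd2 (0.033), Mdm2 (-0.15), Ccnd2 (0.25), Akt2 (0.033), Pik3cb (-0.35), Col7a1 (-0.29), Lpl (1.13) and Il6 (0.69).

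Without the R172H lines the medians of p53 targets and gastric-like genes were 0.18 and -0.26, and Cdkn2a (1.14), Cdkn2b (0.32), Xist (-0.90) and Eif2s3y (0.013) turned. Against only the R172H low-IC50 lines 42 probe sets passed. Over lines or mice left out Mtap ran from -3.56 to 0.15, turning without mouse 15272, and on the slope scaled to the groups Il6 did (0.17). Centred arrays gave 969 higher probe sets, and brighter probe sets alone 654. Leaving out 1 line or mouse gave 0 to 15 calls (15 without mouse 15272, 7 without PUL-15272), Efemp1 differences of -5.31 to -3.81 (-5.24 without PUL-15272), gastric-like medians of -1.50 to -0.34 (-0.34 without PPT-6051 and B-6051), and 223 to 788 probe sets whose contrast differed from the other lines. The causes were not tested.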

Other observations

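By chromosome, over 20109 brighter probe sets with a known position, 7.13% were lower and 3.08% higher in high-IC50 lines at an unadjusted p under 0.05, a description over genes that are not independent. The share lower was 11.9% on chromosome 15, 11.4% on 19 and 11.3% on 18, and 4.1%, 3.4% and 8.8% without the R172H lines. On chromosome 15 the median deviation from the mean of the 17 lines was -0.59 in PPT-5671. It was -0.061 to 0.19 in the other high-IC50 lines and -0.098 to 0.25 in low-IC50 lines. The part of PPT-5671 in that share was not tested. On chromosome 9 the share higher was 6.52%. Copy number was not measured.

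Il6, the cytokine interleukin-6, picked after its values were seen, was 1.76 to 3.23 in high-IC50 lines, against 7.23 in LN1-15272, 8.04 in PPT-5486 and 2.80 or lower in the other low-IC50 lines.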
